A study of Mus musculus with 17 samples.

Results

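The Dusp, Spry and Spred genes are the feedback arm of MAPK signalling, and their mRNA was read here across 6 mouse hematopoietic populations on Agilent single-color arrays. Members were all non-control probes whose gene name in the scanner output was Dusp1, Dusp2, Dusp4, Dusp5, Dusp6, Dusp10, Spry1, Spry2, Spred1 or Spred2. This gave 14 probes of 9 genes among 41174 probes with 28090 gene names. Spred1 had 3 probes, Dusp4, Spry2 and Spred2 had 2 each, and the other genes had 1. The expression of Dusp5, the tenth gene, was not analysed here.

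Marrow came from female C57Bl/6 mice of 6 to 8 weeks, in pools of 10 to 20 animals by the methods, and no treatment or genetic change was applied. Every population was lineage-negative and c-kit+. The HSC subsets were Sca1+ and comprised LT-HSC (CD34- FLT3-), ST-HSC (CD34+ FLT3-) and MPP (CD34+ FLT3+). The myeloid populations were Sca1- and comprised CMP (intermediate CD34 and FcRγ), GMP (CD34+ FcRγ+) and MEP (CD34- FcRγ-). HSC subsets and myeloid populations came from separate sorts, so that sort and side cannot be told apart. The 17 arrays comprised 3 per population, except for LT-HSC with 2. One LT-HSC array was a pool of replicates 2 and 3, and each population had 1 array without a replicate number.

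Receptors such as Kit and Flt3 pass signals through Ras and Raf to ERK, one of the MAP kinases, while stress and inflammatory signals reach the related kinases p38 and JNK. Dual-specificity phosphatases of the Dusp family remove the activating phosphates from these kinases. Sprouty and Spred proteins act further up, at the level of Ras and Raf, and many members are themselves transcribed in response to ERK, so that the signal limits itself. In blood progenitors these cascades carry cytokine signals for survival, proliferation and lineage choice.

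The promoters of the 5 members with their highest mean in MPP and their lowest in MEP are shown, because genes of this kind are known to be induced through elements close to the start. They are the 150 bases before the start, 5′ to 3′, from the RefSeq table of GRCm38.p6, in which 9 of the 10 genes had an entry, Dusp5 included, and Dusp4 did not. Capitals mark matches, on either strand, to the CRE (TGACGTCA, the site of CREB), the AP-1 element (TGANTCA), an Ets element (CCGGAAGT), the CArG box bound by serum response factor, and the GC box (GGGCGG).
Dusp1, chr17:26508473-26508622, minus strand: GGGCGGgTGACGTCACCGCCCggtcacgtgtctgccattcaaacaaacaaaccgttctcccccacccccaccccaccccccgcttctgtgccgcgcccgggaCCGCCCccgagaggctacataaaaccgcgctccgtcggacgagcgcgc
Dusp2, chr2:127336009-127336158, plus strand: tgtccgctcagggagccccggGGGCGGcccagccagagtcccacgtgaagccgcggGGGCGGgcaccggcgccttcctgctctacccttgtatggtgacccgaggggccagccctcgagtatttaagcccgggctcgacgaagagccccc
Dusp6, chr10:99263081-99263230, plus strand: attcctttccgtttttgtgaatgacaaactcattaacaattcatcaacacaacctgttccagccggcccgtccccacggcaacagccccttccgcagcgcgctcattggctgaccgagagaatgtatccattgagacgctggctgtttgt
Spry1, chr3:37639797-37639946, plus strand: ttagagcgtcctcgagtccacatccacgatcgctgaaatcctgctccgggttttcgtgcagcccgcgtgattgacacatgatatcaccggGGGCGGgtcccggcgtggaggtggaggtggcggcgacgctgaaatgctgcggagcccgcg
Spry2, chr14:105896820-105896969, minus strand: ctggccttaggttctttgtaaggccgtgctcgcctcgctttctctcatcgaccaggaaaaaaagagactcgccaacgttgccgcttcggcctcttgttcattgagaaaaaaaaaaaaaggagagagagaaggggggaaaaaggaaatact
The Dusp1 promoter held a CRE, with a GC box on each side of it and no overlap between the matches, and the Dusp6 and Spry2 promoters held none of the 5 elements. Over the full window of 250 bases before to 50 bases after the start, 1 of these 9 genes had a CRE (Dusp1), against 1.79% of 32851 promoters. A CArG box stood in 1 of 9 (Dusp5, which had no probe, with 2 of them), against 1.63% of all promoters, and GC boxes stood in 7 of 9, against 35.7%. No member had the AP-1 or the Ets element as spelled here, which were in 7.81% and 3.89% of all promoters. These are matches of letters in a short window and not measured binding.

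Of the 9 genes with a probe, 8 were higher in HSC subsets than in myeloid populations when each gene was read by its brightest probe. The exception was Spred2, and no gene was lower by its brightest probe. Over the brightest probes of all genes, 21.7% were higher and 19% were lower. Apart from Dusp4, which GMP and MEP did not show above background, the log2 differences of these genes ran from 1.06 for Spred1 to 2.59 for Spry1, and the median over the 9 genes was 1.76, against 0.04 over the brightest probes of all genes. In the limma fit over all probes with Benjamini-Hochberg adjustment, 9 of the 14 member probes were higher and 3 were lower, while 18.2% of all probes were higher and 23.1% were lower. For 5 member probes, those of Dusp4, Dusp6, Dusp10 and Spry1, every HSC-subset array lay above every myeloid array, a separation found in 2.54% of all probes. The brightest probe was the one nearest the 3′ end in all 4 genes with several probes, and signal leaned more to the 3′ end on HSC-subset arrays, with values given below. The part of this lean in the higher readings was not tested. In bulk populations, fewer expressing cells and less RNA per cell cannot be told apart.

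The F-test over the 6 populations passed p under 1e-06, the threshold of the methods, for 5 of the 14 probes, those of Dusp2, Dusp4, Dusp6 and Spry1, against 4.9% of all probes. At an adjusted p under 0.05 it passed for 10 of the 14, against 40.6%. From MPP to CMP, 7 member probes were lower in CMP and none was higher, where 5.39% of all probes were higher in MPP and 6.75% lower. Between the 2 branches that follow CMP, 3 probes were higher in GMP than in MEP and none was lower, against 9.56% and 7.81%. LT-HSC differed from ST-HSC and MPP in 2 probes, both lower, against 4.63% of all probes higher and 2.3% lower.

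**Figure D1:**
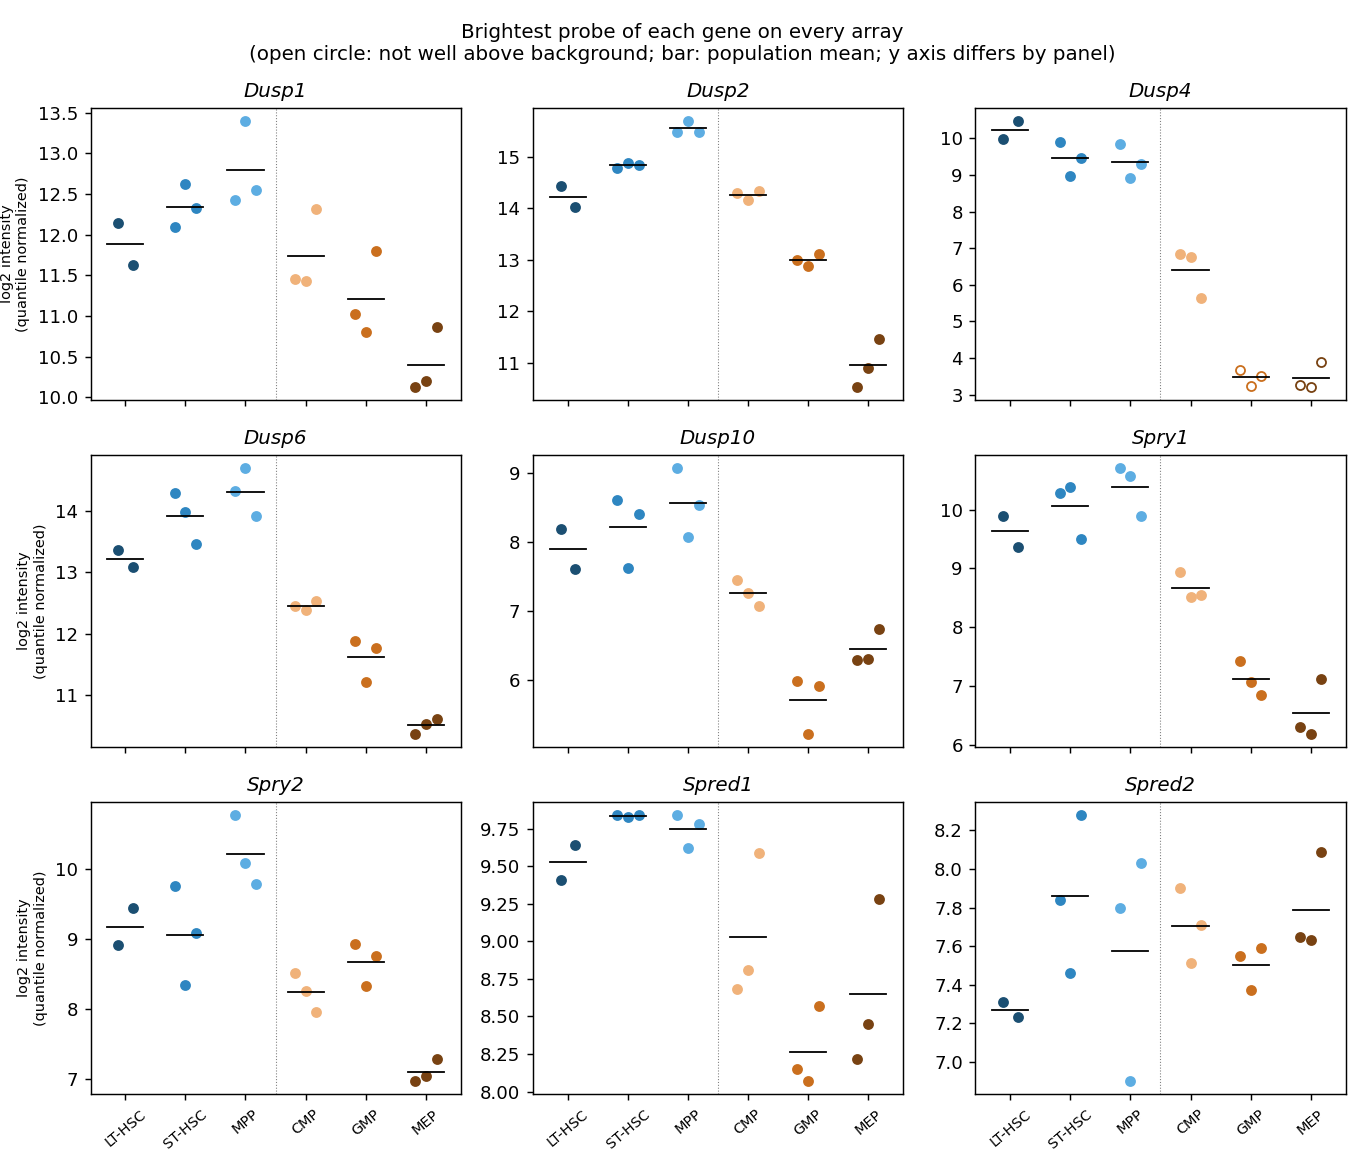
Normalized log2 intensity of the brightest probe of each of the 9 genes on each of the 17 arrays, by population, with a bar at the population mean and an open circle where the array did not measure the probe well above background. The dotted line divides HSC subsets from myeloid populations, and the y axis has its own range in every panel. MPP stood highest for Dusp1, Dusp2, Dusp6, Dusp10, Spry1 and Spry2, LT-HSC for Dusp4, and the 6 GMP and MEP circles of Dusp4 are open.

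The Agilent software called 41.4% to 70.1% of the spots on an array well above their local background, and the unnumbered LT-HSC array was the dimmest. Arrays of 1 population correlated at r of 0.95 to 0.99. Of the markers read to check the sorts, 6 of 6 HSC markers were higher in HSC subsets, 7 of 7 GMP markers were higher in GMP than in MEP, and 6 of 6 MEP markers were higher in MEP than in GMP, while none of the 3 MPP markers passed the test between MPP and CMP. Of the 9 myeloid arrays, 6 were scanned on a date that held no HSC subset, and of the 8 HSC-subset arrays, 6 were scanned on a date that held no myeloid population. Both sides met on 2 scan dates, the first with 1 array each of MPP, CMP and GMP and the second with 1 each of ST-HSC and MEP. With scan date as a block, 6 of the 9 genes were higher in HSC subsets by their brightest probe, and Dusp1 and Spry2 no longer passed. Among all 41174 probes, 2665 were higher and 2777 lower in that fit, against 7478 and 9528 without the block. Transcripts of mature cells also moved with the main contrast: 5 of 5 T cell markers, 4 of 5 B cell markers, 4 of 5 mature neutrophil markers and 2 of 4 mature erythroid markers were higher in HSC subsets. The mean log2 level of the neutrophil markers ran from 11.92 to 15.35 over HSC-subset arrays and from 10.98 to 13.77 over myeloid arrays. For the T cell markers the ranges were 5.76 to 7.09 and 3.93 to 5.68, for the B cell markers 5.53 to 7.74 and 4.57 to 5.56, and for the mature erythroid markers 8.53 to 10.75 and 5.94 to 12.34. Each marker of these 4 lists was well above background on more than 2 arrays. Their part in the differences of the members was not tested.

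Dusp4 encodes a nuclear phosphatase that acts on ERK and on JNK and is itself induced by ERK. Its brightest probe (chr8:35884806-35884865 of mm9, plus strand) gave normalized log2 intensities of 9.99 and 10.48 on the LT-HSC arrays, 8.98, 9.47 and 9.91 on the ST-HSC arrays, and 8.93, 9.29 and 9.84 on the MPP arrays. In CMP it was at 5.64, 6.76 and 6.84, in GMP at 3.23, 3.52 and 3.68, and in MEP at 3.21, 3.25 and 3.88. The order was thus LT-HSC, ST-HSC, MPP, CMP, and then GMP and MEP, in which none of the 6 arrays measured the probe well above background. Neighbours in this order did not overlap between LT-HSC and ST-HSC, between MPP and CMP and between CMP and GMP, whereas ST-HSC and MPP overlapped.

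The fitted log2 difference of Dusp4 between HSC subsets and myeloid populations was 5.23 ± 0.21 (SE; 8 and 9 arrays; limma, adjusted p = 4.13e-09), but its size rests on readings at background in 6 of the 9 myeloid arrays. It was 2.73 after normexp background correction (adjusted p = 5.64e-09) and 3.67 in the authors' table (adjusted p = 5.26e-10). Since GMP and MEP have only an upper bound, folds against them were taken from the dimmest signals still well above background on the same arrays, or the probe's own where that was higher. On that basis, with the main values and without allowance for spread, the LT-HSC mean was at least 63.6-fold above GMP and at least 45.7-fold above MEP. The MPP mean was at least 34.5-fold above GMP, and that of CMP at least 4.50-fold above GMP and 3.23-fold above MEP. These folds were not recomputed with normexp or the authors' table, where the difference given above was smaller. The other Dusp4 probe, 2761 bases towards the 5′ end, was likewise not well above background on any GMP or MEP array and correlated with the first at r of 0.98 over the 17 arrays. Its fitted difference of 3.59 ± 0.20 (SE, adjusted p = 3.94e-08) was 1.37 after normexp and 2.09 in the authors' table.

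Dusp6 encodes the phosphatase that removes phosphate from ERK in the cytoplasm, with little activity on p38 or JNK. Its probe (chr10:98729985-98730044 of mm9) was at 13.08 and 13.37 in LT-HSC, 13.47, 13.99 and 14.29 in ST-HSC, and 13.92, 14.33 and 14.70 in MPP. It was at 12.39, 12.45 and 12.54 in CMP, in GMP at 11.22, 11.77 and 11.88, and in MEP at 10.37, 10.54 and 10.62. The highest array of each myeloid population lay below the lowest array of the population before it, so CMP, GMP and MEP formed a staircase under the HSC subsets. The log2 difference was 2.29 ± 0.15 (SE, adjusted p = 1.59e-07), a 4.89-fold higher level in HSC subsets, and with scan date as a block it was 1.69 (adjusted p = 0.00149).

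Dusp2 is a nuclear phosphatase, first known from activated lymphocytes, that acts on ERK and p38. Its probe (chr2:127163930-127163989 of mm9) was at 14.02 and 14.43 in LT-HSC, 14.79, 14.84 and 14.89 in ST-HSC, and 15.48, 15.48 and 15.70 in MPP. On the myeloid side it was at 14.17, 14.29 and 14.34 in CMP, in GMP at 12.88, 12.99 and 13.12, and in MEP at 10.53, 10.90 and 11.46. CMP therefore overlapped LT-HSC, and the 2 sides overlapped for this reason alone, while MPP stood apart above ST-HSC and GMP apart above MEP. The span from MPP to MEP was 4.59 on the log2 scale. The difference between the sides was 2.13 ± 0.12 (SE, adjusted p = 5.65e-08), and 1.79 with scan date as a block (adjusted p = 0.000407).

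Dusp1, an immediate early gene whose product acts on p38, JNK and ERK in the nucleus, is the member with the CRE shown above. Its probe (chr17:26642796-26642853 of mm9, minus strand) was at 11.63 and 12.15 in LT-HSC, 12.09, 12.33 and 12.62 in ST-HSC, and 12.43, 12.55 and 13.40 in MPP. In CMP it was at 11.43, 11.46 and 12.32, in GMP at 10.81, 11.03 and 11.80, and in MEP at 10.13, 10.20 and 10.86. The order was that of Dusp6, but no pair of neighbours was separate, and the highest array of CMP, of GMP and of MEP was in each case the unnumbered one. The difference between the sides was 1.23 ± 0.21 (SE, adjusted p = 0.000418). It was 0.53 with scan date as a block (adjusted p = 0.304), and within the 2 scan dates that held both sides it was 0.49 and 1.47.

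Dusp10 encodes a phosphatase with a preference for JNK and p38 over ERK. Its probe (chr1:185898608-185898667 of mm9) was at 7.61 and 8.19 in LT-HSC, 7.62, 8.40 and 8.60 in ST-HSC, and 8.07, 8.53 and 9.07 in MPP. The CMP arrays read 7.06, 7.25 and 7.44, the GMP arrays 5.21, 5.90 and 5.98, and the MEP arrays 6.29, 6.30 and 6.74. It was the one Dusp gene with its lowest mean in GMP, and had every GMP array below every MEP array, although the difference of -0.75 ± 0.32 (SE) did not pass the test (adjusted p = 0.148). The difference between HSC subsets and myeloid populations was 1.76 ± 0.19 (SE, adjusted p = 1.18e-05), and 1.04 after normexp background correction (adjusted p = 1.73e-05).

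Sprouty proteins hold back the step from activated receptors to Ras and Raf, and are induced by the same signals. The Spry1 probe (chr3:37543194-37543253 of mm9) was at 9.37 and 9.90 in LT-HSC, 9.50, 10.29 and 10.39 in ST-HSC, and 9.89, 10.57 and 10.71 in MPP. In CMP it was at 8.51, 8.55 and 8.94, in GMP at 6.85, 7.06 and 7.42, and in MEP at 6.18, 6.30 and 7.11. The 3 HSC subsets overlapped each other, CMP lay below them all and above all GMP arrays, and GMP and MEP overlapped. The difference was 2.59 ± 0.19 (SE, adjusted p = 5.62e-07), a 6.02-fold higher level in HSC subsets, and with scan date as a block it was 1.80 (adjusted p = 0.00295).

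Spry2 was the only member for which GMP had a higher mean than CMP among the brightest probes. That probe (chr14:106291385-106291444 of mm9, minus strand) was at 8.91 and 9.44 in LT-HSC, 8.34, 9.09 and 9.76 in ST-HSC, and 9.79, 10.09 and 10.77 in MPP. The myeloid arrays read 7.96, 8.25 and 8.51 in CMP, 8.33, 8.75 and 8.93 in GMP, and 6.97, 7.04 and 7.29 in MEP. MPP lay apart above LT-HSC, the next in order, and MEP apart below CMP, while the populations between overlapped. The difference between the sides was 1.48 ± 0.20 (SE, adjusted p = 7.39e-05), and it was 1.16 with scan date as a block (adjusted p = 0.102). Within the 2 scan dates that held both sides it was 1.43 and 1.81.

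Spred proteins are membrane-bound relatives of the Sproutys that bring neurofibromin to Ras. The brightest Spred1 probe (chr2:117007850-117007909 of mm9) was at 9.41 and 9.64 in LT-HSC, 9.83, 9.84 and 9.84 in ST-HSC, and 9.62, 9.78 and 9.84 in MPP. In CMP it was at 8.68, 8.81 and 9.59, in GMP at 8.07, 8.15 and 8.57, and in MEP at 8.22, 8.45 and 9.28. The HSC subsets were tight, and the overlap with the myeloid side came from the unnumbered CMP array, which exceeded the lower LT-HSC array. The difference was 1.06 ± 0.17 (SE, adjusted p = 0.000213), and 0.55 with scan date as a block (adjusted p = 0.0455). The brightest Spred2 probe (chr11:19923715-19923774 of mm9) ranged only from 6.90 to 8.28 over the 17 arrays, and its difference of -0.10 ± 0.17 (SE) did not pass the test (adjusted p = 0.673).

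**Figure D2:**
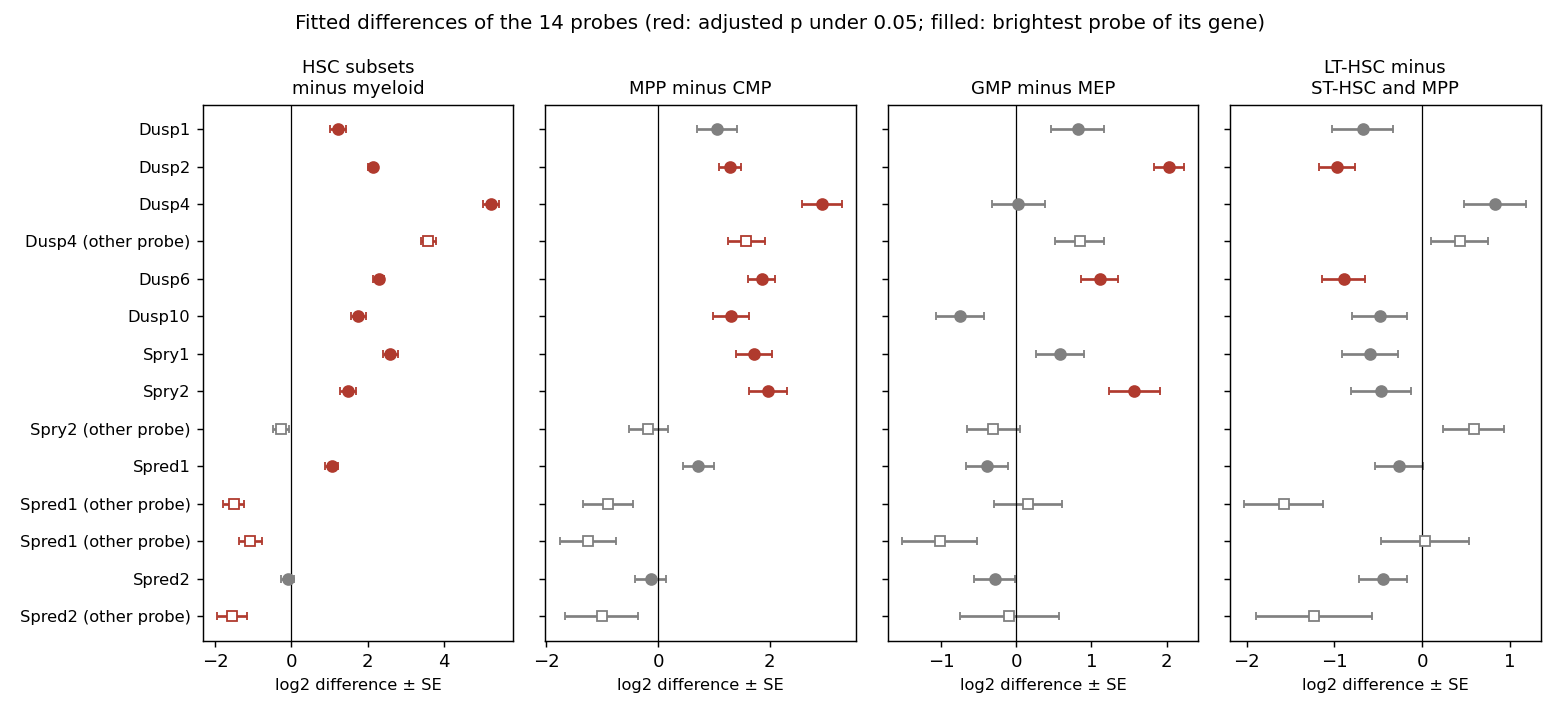
Fitted log2 differences of the 14 member probes in the 4 comparisons, with standard errors, each panel on its own x axis. Filled circles are the brightest probe of a gene, open squares its other probes, and red marks an adjusted p under 0.05. In the first panel 9 probes are red to the right of 0 and 3, all other probes of Spred1 and Spred2, are red to the left.

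The probes of 1 gene did not always move together. In each of the 4 genes with several probes, the brightest was the one nearest the 3′ end. The 2 other Spred1 probes, 4794 and 10129 bases towards the 5′ end, and the other Spred2 probe, 1365 bases away, were called lower in HSC subsets, while the brightest probe of Spred1 was higher. The other Spry2 probe, 516 bases away, had a difference of -0.27 ± 0.21 (SE, adjusted p = 0.342), and correlated with the brightest at r of -0.45 over the 17 arrays. For Spred1 this r was -0.57 and -0.35, while the 2 Spred2 probes correlated at 0.55. The other Spry2 probe was well above background on all 17 arrays. The dimmer readings of Spred1 and Spred2 were not steady, however. The Spred1 probe at 10129 bases differed by -1.51 ± 0.27 (SE, adjusted p = 0.00057), but it was not well above background on either LT-HSC array. The one at 4794 bases was well above background on 1 of 17 arrays, so that no size is given for it.

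The other Spred2 probe differed by -1.55 ± 0.39 (SE, adjusted p = 0.00659) and turned to 0.081 with scan date as a block (adjusted p = 0.961). After normexp background correction the difference was -0.32 for this probe and -0.30 for the Spred1 probe at 10129 bases. None of the 3 calls held with scan date as a block or under normalization to the 75th percentile. The same lean was seen across the arrays. Among 7992 genes with probes apart on 1 strand, the 3′-most probe was the brightest in 60.9%. The median of the 5′-most minus the 3′-most log2 intensity per array ran from -1.57 to -1.34 on HSC-subset arrays and from -1.26 to -0.82 on myeloid arrays. Among the myeloid arrays it also went with scan date. The numbered ones, all of the first date, were at -0.99 to -0.82, and the unnumbered ones at -1.26 to -1.09. On the date shared by MPP, CMP and GMP it was -1.34, -1.26 and -1.09. Per gene, the log2 difference between HSC subsets and myeloid populations at the 5′-most probe minus that at the 3′-most probe had a median of -0.41. The part of this lean in the split of the Spred1, Spred2 and Spry2 probes was not tested.

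**Figure D3:**
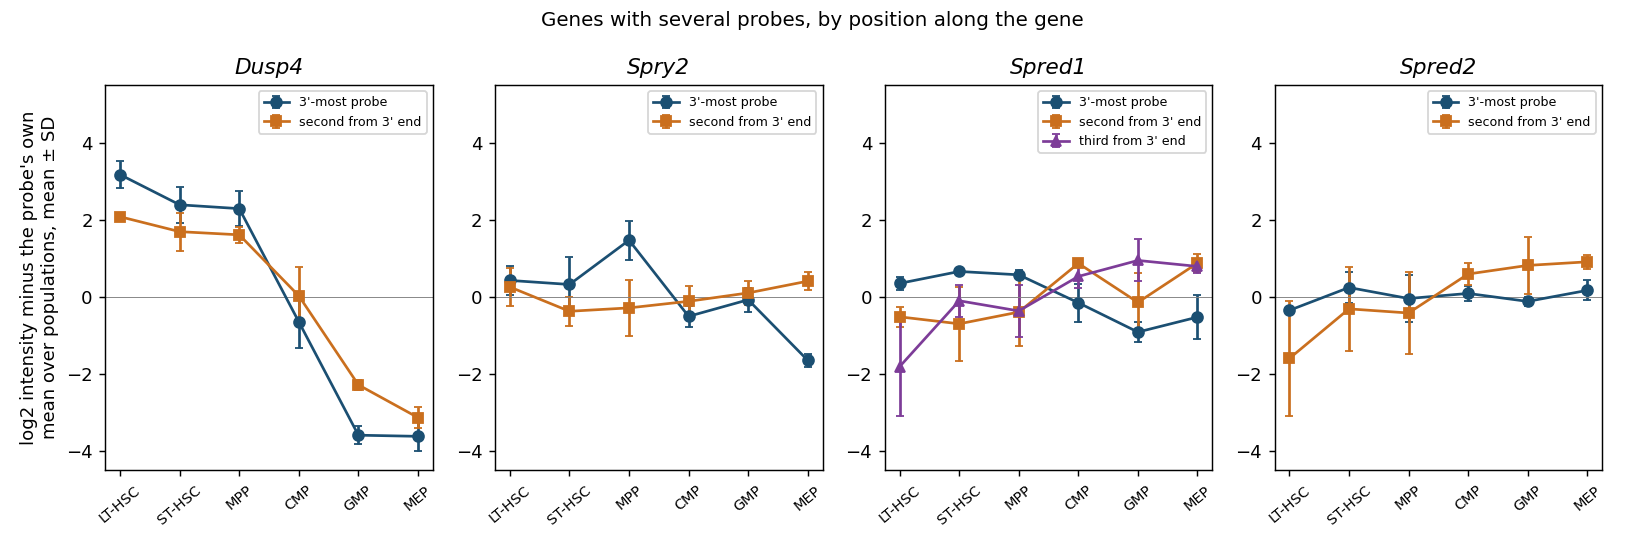
Mean log2 intensity of each probe by population for the 4 genes with several probes, minus the probe's own mean over the 6 populations, with bars of 1 SD over 2 or 3 arrays. Colours and shapes give the order of the probes from the 3′ end. Both Dusp4 probes fall from LT-HSC to MEP, while the other probes of Spred1, Spred2 and Spry2 differ in course from the 3′-most one to varying degrees.

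The step from MPP to CMP is the one at which Sca1 is lost in the study's hierarchy. All 3 MPP arrays lay above all 3 CMP arrays for 8 of the 9 brightest probes, Spred2 being the exception, a separation found in 16.9% of the brightest probes of all genes, and the difference passed the test for 6. Dusp4 differed by 2.94 ± 0.35 (SE, adjusted p = 0.000281), which was 1.89 after normexp, Spry2 by 1.98 ± 0.34 (adjusted p = 0.00306) and Dusp6 by 1.86 ± 0.25 (adjusted p = 0.000508). Spry1 differed by 1.72 ± 0.32 (adjusted p = 0.00484), Dusp10 by 1.31 ± 0.32 (adjusted p = 0.0188) and Dusp2 by 1.29 ± 0.20 (adjusted p = 0.00165). Dusp1, at 1.06 ± 0.35 (adjusted p = 0.0679), and Spred1, at 0.73 ± 0.28 (adjusted p = 0.106), did not pass. Nor did the other Spry2 probe, at -0.17 ± 0.35 (adjusted p = 0.822). The brightest Spred1 probe passed in the authors' table, at 0.74 (adjusted p = 0.032), and after normexp, at 0.64 (adjusted p = 0.0382). Within the 1 scan date that held both populations, with 1 array of each, all 9 differences were above 0, from 0.20 for Spred1 to 3.65 for Dusp4. With scan date as a block, Dusp2, Dusp4 and Dusp6 passed, while Spry2 at 1.72 (adjusted p = 0.0943), Dusp10 at 1.25 (adjusted p = 0.209) and Spry1 at 1.06 (adjusted p = 0.104) did not. In the same step 4 of 4 megakaryocyte markers and 5 of 6 MEP markers were lower in MPP. So were 3 of 7 GMP markers and 2 of 5 mast cell and basophil markers. The megakaryocyte markers were at mean log2 levels of 7.68 to 8.94 in MPP and 11.98 to 12.62 in CMP. Of the 6 HSC markers, 5 were higher in MPP and 1 was lower. Their mean log2 levels were 9.86 to 9.95 in MPP and 7.64 to 8.25 in CMP. Higher in MPP were also 1 of 5 T cell markers and 1 of 4 mature erythroid markers. The part of all these markers in the differences of the members was not tested. The call of Dusp10 was lost without MPP replicate 2, at 1.05 (adjusted p = 0.0999), and also without CMP replicate 2.

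GMP and MEP, the granulocyte-monocyte and the erythroid-megakaryocyte branch, differed in 3 members, each higher in GMP. Dusp2 differed by 2.03 ± 0.20 (SE, adjusted p = 7.85e-06), Spry2 by 1.57 ± 0.34 (adjusted p = 0.00465) and Dusp6 by 1.11 ± 0.25 (adjusted p = 0.00547). All 3 kept their direction within each of the 2 slides that held both populations, where Dusp2 differed by 1.98 and 2.46, Spry2 by 1.29 and 1.96 and Dusp6 by 0.68 and 1.51. Dusp1 (0.82 ± 0.35, adjusted p = 0.154) and Spry1 (0.58 ± 0.32, adjusted p = 0.302) did not pass. Nor did the other Spry2 probe, at -0.31 ± 0.35 (adjusted p = 0.711). With scan date as a block Spry1 passed, at 0.78 (adjusted p = 0.046), and with 3 scanning runs as a block, the 2 middle dates taken as 1, Dusp1 passed, at 0.82 (adjusted p = 0.0268). Dusp4 was not well above background in either population and has no fold. Beside the GMP and MEP markers, 5 of 5 mast cell and basophil markers were higher in GMP, at mean log2 levels of 10.87 to 11.39 in GMP and 4.71 to 6.12 in MEP. All 4 mature erythroid markers were lower in GMP, at 5.94 to 7.68 in GMP and 10.77 to 12.34 in MEP. Higher in GMP were also 4 of 6 HSC markers (6.48 to 6.54 in GMP and 4.79 to 5.61 in MEP), 2 of 3 MPP markers (9.75 to 10.15 and 7.13 to 7.99) and 2 of 4 megakaryocyte markers (9.99 to 10.69 and 8.84 to 9.07). The part of these markers in the 3 differences was not tested.

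LT-HSC, the most primitive population, had less Dusp2 and Dusp6 than ST-HSC and MPP. The difference was -0.97 ± 0.20 (SE, adjusted p = 0.0138) for Dusp2 and -0.89 ± 0.25 (SE, adjusted p = 0.0462) for Dusp6, and in both genes the 2 LT-HSC arrays lay below all 6 others. Dusp4 leaned the other way, at 0.83 ± 0.35 (adjusted p = 0.194), with both LT-HSC arrays above all 6 others, and did not pass. Without the dim unnumbered LT-HSC array, Dusp2 was at -0.76 and Dusp6 at -0.75. That fit leaves 1 LT-HSC array, so its spread comes from the other populations alone and its p-values are not given. The call of Dusp6 was lost in 14 of the 17 fits that left out 1 array, myeloid arrays included, and that of Dusp2 in 1. The LT-HSC arrays shared 1 slide with no other population, and with slide as a random block neither gene passed, with Dusp2 at -0.91 (adjusted p = 0.108) and Dusp6 at -0.74 (adjusted p = 0.275). With scan date as a block both passed, at -0.99 (adjusted p = 0.00525) and -1.10 (adjusted p = 0.0072). MEP markers moved with this contrast: all 6 were higher in LT-HSC, with mean log2 levels of 9.29 to 10.32 on the LT-HSC arrays, 7.69 to 8.24 in ST-HSC, 5.61 to 6.64 in MPP and 12.14 to 12.28 in MEP. Of the 5 mast cell and basophil markers, 3 were lower in LT-HSC, with mean log2 levels of 5.92 to 7.03 in LT-HSC, 9.57 to 10.29 in ST-HSC and 6.16 to 7.50 in MPP, and 2 of 5 B cell markers and 1 of 5 T cell markers were higher. The part of all these markers in the lower Dusp2 and Dusp6 was not tested.

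**Figure D4:**
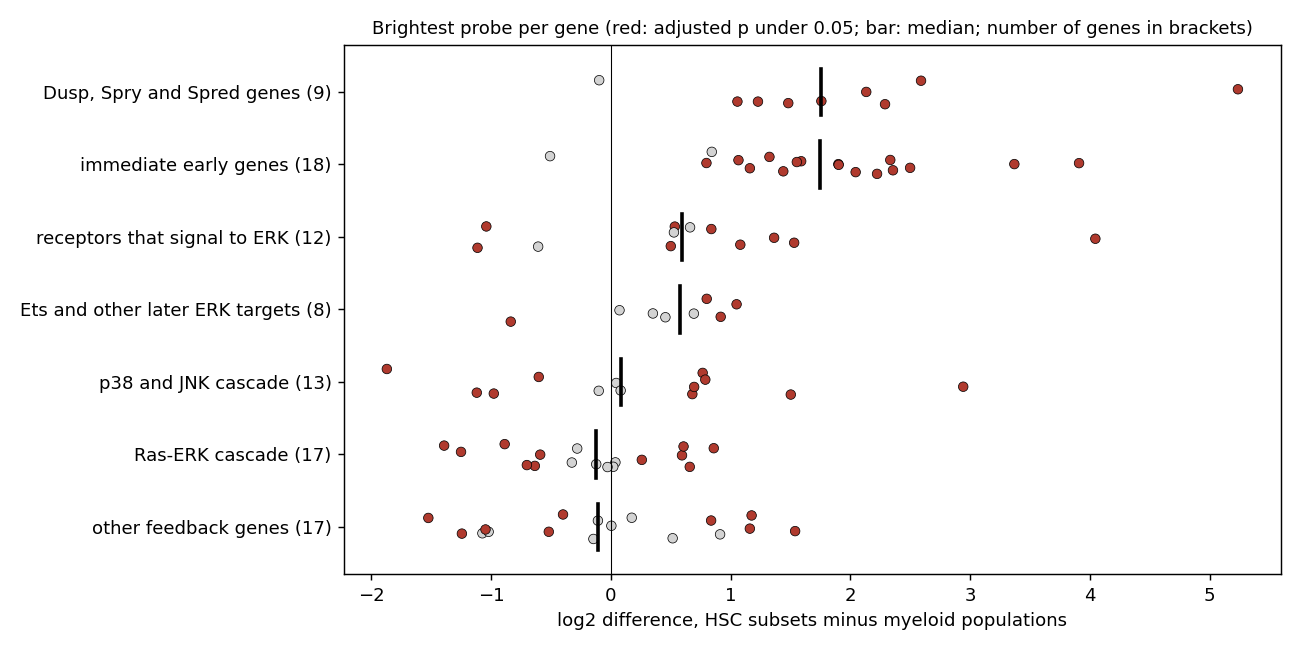
Log2 difference between HSC subsets and myeloid populations for the brightest probe of each gene, by list, with the number of genes in brackets, a bar at the median and red for an adjusted p under 0.05. The vertical scatter within a row has no meaning. The Dusp, Spry and Spred genes and the immediate early genes lie mostly to the right of 0, with medians of 1.76 and 1.74, and the kinases of the cascades spread to both sides.

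Other genes around the pathway were read by the same fit, and the immediate early genes were those most often higher in HSC subsets. These genes are transcribed within minutes of a signal and need no new protein. Of 18, 16 were higher, none was lower and 2 (Atf3 and Klf2) did not pass, with a median difference of 1.74 against 0.04 over all genes. Nr4a1, a nuclear receptor, differed by 3.91. Egr3, a zinc-finger factor, was higher as well, but was well above background on 10 of the 17 arrays and is given no size. The mean log2 level of the 18 genes ran from 12.82 to 12.86 in MPP, 11.93 to 12.52 over LT-HSC and ST-HSC, 11.69 to 12.04 in CMP, 10.10 to 10.52 in GMP and 9.88 to 10.03 in MEP. By this mean MPP was highest and MEP lowest, as for Dusp1, Dusp2, Dusp6, Spry1 and Spry2. Single genes did not all follow this order. Nr4a1 had a lower mean in GMP than in MEP, at -0.82 (adjusted p = 0.308). The median difference of GMP minus MEP over the 18 genes was 0.19. Between GMP and MEP, 5 of the 18 were higher in GMP and 1 (Ier5) was lower, where 10.3% of the brightest probes of all genes were higher and 8.26% lower. The GMP and MEP counts of the lists that follow are read against the same shares.

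The kinases themselves had no common direction. Of 17 genes of the Ras-ERK cascade, from Grb2 to Mapk3, 5 were higher in HSC subsets, 6 were lower and 6 did not pass, with a median of -0.12. The lists are read against the 21.7% higher and 19% lower among the brightest probes of all genes. Among the higher genes the largest differences were 0.86 for Sos2 and 0.66 for Grb2, which load Ras or link it to receptors. Among the lower genes it was -1.39 for Hras1, followed by Gab2, which was well above background on 1 array and is given no size. Of 13 genes of the p38 and JNK cascade, 6 were higher, 4 lower and 3 did not pass, with Mapk12 and Mapk11 among the higher (each well above background on 11 of the 17 arrays, so given no size) and Map3k7 at -1.87 and Map2k7 at -1.12 among the lower. Between GMP and MEP, 3 of the Ras-ERK genes were higher in GMP and 2 lower, and 3 of the p38 and JNK genes were higher and 1 lower.

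Further feedback genes had no common direction. Of 17, 4 were higher in HSC subsets, 5 were lower and 8 did not pass, with a median of -0.11. Pea15a, which keeps ERK in the cytoplasm, differed by 1.54 and Il17rd, an inhibitor of FGF signalling, by 1.18, while Nf1, the Ras GTPase activator to which Spred proteins bind, differed by -1.52 and Dusp9 by -1.24. Spry3 and Spry4 were well above background on none of the 17 arrays, and Spred3 and Dusp14 on 1. Between GMP and MEP, 4 of these genes were higher in GMP and 3 lower. Of 8 Ets factors and other later ERK targets with a probe, 3 were higher in HSC subsets (Mcl1 at 1.05 and Ccnd1 at 0.92 were the largest), 1 was lower (Etv5, well above background on 9 arrays) and 4 did not pass. None of these 8 was higher in GMP than in MEP and 2 were lower.

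Of 12 receptors that signal to ERK, 7 were higher in HSC subsets, 2 were lower and 3 did not pass. Pdgfrb, a receptor of platelet-derived growth factor, differed by 1.53, while Csf1r differed by -1.11 and Epor, the erythropoietin receptor, by -1.04. Between GMP and MEP, 6 receptors were higher in GMP and 1, Epor, was lower.

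Likeness between profiles is given as a description over the 17 arrays, which share populations, scan dates and normalization. Among the brightest probes of the members, Dusp6 and Spry1 were the closest pair, at r of 0.97, followed by Dusp2 and Dusp6 at 0.95 and Dusp4 and Spry1 at 0.94. Spred2 correlated with the other members at r of -0.14 to 0.20. Outside the family, the profiles most like Dusp4 were those of Robo4, Hoxa10 and Bdh2 (r of 0.99, 0.99 and 0.98). Those most like Dusp2 were Sirt3, Ifi203 and Afap1l1 (0.99 each), those most like Dusp6 were Slain1, Camk2g and 1810015C04Rik (0.98 each), and those most like Spry1 were Vldlr, Exoc3 and Rab2b (0.99 each).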

How the data were processed

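The deposited scanner files held the intensity of each spot, which the Agilent Feature Extraction software (version 9.5.3.1 on 6 arrays and 10.2.1.3 on 11) had background-subtracted without normalizing between arrays. Version 9.5.3.1 was used on replicates 1 and 2 of CMP, GMP and MEP, while all HSC-subset arrays had 10.2.1.3. The part of the version in the differences was not tested. A log2 table that the authors had quantile normalized was deposited as well and used as an alternative. Here log2 intensities were quantile normalized over 17 arrays, as in the methods, and 1639 control spots and spots flagged as outliers were left out, which left 161 probe values missing, none of a member. One mean per population was fitted to 41174 probes with lmFit and eBayes of limma 3.58.1 (R 4.3.3), with Benjamini-Hochberg adjustment at 0.05, and the fit was tested on simulated data. A gene was read by the probe with the highest mean, and every member probe is reported. Probe positions are those of the mm9 annotation in the files, and promoters are of GRCm38.p6. The named genes are the members, the 3 profiles most like each member past the F-test threshold among probes well above background on at least 9 arrays, and at most the 2 largest called differences each way per list. Singled out after their values were seen were Atf3, Klf2, Ier5, Spry3, Spry4, Spred3 and Dusp14. Members and lists were chosen with earlier results of these data known. Of the listed names, Lif, Csf2rb1 and Elane matched no gene name here. The value of 1 listed receptor is not reported here.

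Alternatives were the authors' table, the 75th percentile of each array in place of quantiles, background correction by normexp (offset 50), only probes well above background on at least 2 arrays, the brightest probe per gene, scan date, slide or replicate number as a block, and fits without LT-HSC or without any 1 array. Added after the data were seen were 3 scanning runs as a block (the 2 middle dates as 1) and values within each slide and scan date. The number of arrays limits the precision. The p-values measure the spread between arrays of a population, which joins pools with scan dates, slides and, in the myeloid populations, software versions. Only LT-HSC had all its arrays on 1 slide.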

Additional observations from a re-analysis of the deposited data

Results flagged for a closer look

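In 2 cases a reading was set apart from the others of their side by a gap that exceeded the critical value of Dixon's test, among 28 sets of 8 or 9 arrays examined, where chance alone sets about 1 in 20 apart. The unnumbered LT-HSC array read 1.70 on the Spred1 probe furthest to the 5′ end, below the other 7 HSC-subset arrays. GMP replicate 2 read 2.38 on the middle Spred1 probe, below the other 8 myeloid arrays. Neither reading was well above background, and that LT-HSC array was the dimmest of the 17.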

How the results depend on the processing

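Of the log2 differences of the 14 probes, recomputed under each alternative, 145 of 162 values kept their call between HSC subsets and myeloid populations, 149 of 162 between MPP and CMP, 158 of 162 between GMP and MEP and 131 of 148 for LT-HSC. Among the differences that passed the test, only that of the other Spred2 probe turned, from -1.55 to 0.081 with scan date and to 0.11 with 3 scanning runs as a block. With scan date as a block, 1 probe passed the F-test at p under 1e-06 (5 without it), 7 differed between HSC subsets and myeloid populations (12 without it), 3 between MPP and CMP (7 without it) and 4 in the LT-HSC comparison (2 without it). Over all probes, calls between the sides were then 2665 higher and 2777 lower, against 7478 and 9528 without it. Between MPP and CMP they were 821 and 572, against 2220 and 2778. For LT-HSC they were 2732 and 2630, against 1906 and 945. With 3 scanning runs as a block, 3 passed the F-test, 7 differed between the sides, 4 between MPP and CMP and 5 between GMP and MEP (3 without it). Over all probes, 2826 were then higher and 3144 lower between the sides, and 890 and 645 between MPP and CMP. Between GMP and MEP they were 5135 and 5323, against 3938 and 3214 without it. With a replicate block, the unnumbered arrays were treated as a single replicate, and numbers were matched across sorts. In that fit 3 probes passed the F-test, 12 differed between HSC subsets and myeloid populations, and Dusp1 passed between GMP and MEP at 0.82 (adjusted p = 0.0138). Its LT-HSC comparison is given no count, since the pooled array has no single number. It rests on 1 LT-HSC array, the dimmest, assumed to vary like the other groups. Among same-numbered arrays of different populations, deviations correlated at r of 0.13 to 0.52 on 1 slide and -0.06 to 0.01 on different slides, so same-numbered arrays deviated together within a sort, where they shared a slide, and not across sorts. The LT-HSC comparison gave 0 probes under normalization to the 75th percentile and 1 without dim probes, and with slide as a random block it gave 0. With each array left out in turn, 5 probes passed the F-test in every case, 12 differed between the sides, 6 to 9 between MPP and CMP, 3 to 4 between GMP and MEP and 0 to 2 for LT-HSC. Normalization to the 75th percentile moved the median difference of all probes between the sides from -0.02 to 0.31, and the share of higher among all calls from 44.0% to 64.1%. The cause was not tested. Dim probes, above all those of Spred1 and Spred2 away from the 3′ end, carry little signal over background.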
